A study of Mus musculus with 4 samples.

Results

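The neurons described here were dorsal root ganglion (DRG) cells that carried RNA of *Oprk1*, the kappa opioid receptor, within the peptidergic population that the study names PEP1, and they are called *Oprk1* PEP1-like neurons. A cell was a member when it had at least 1500 genes, at least 5000 unique molecular identifiers (UMIs, each marking 1 captured RNA molecule) and at most 10% mitochondrial UMIs. It also had UMIs of at least 3 of the 6 genes *Kcnv1*, *Cldn9*, *Traf3ip3*, *Pcp4l1*, *Capn9* and *Cdhr1*, at least 1 *Oprk1* UMI and no UMI of *Comp*, a cartilage matrix gene that marks other PEP1 cells. Cells with a normalized value of *Sprr1a*, a marker of injured neurons, above 1 (natural log of 1 plus UMIs per 10000) were left out. The rule found 532 members among the 17836 cells that passed the filters, of 23691 deposited.

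Single-cell RNA sequencing was carried out on 4 libraries, of which Male-Sham and Female-Sham followed sham surgery and Male-CCI and Female-CCI followed nerve injury. CCI, chronic constriction injury, is a loose ligation of the sciatic nerve, here on both sides, and sham surgery was its control. Each library pooled 20 lumbar DRGs of 5 mice of one sex, taken on day 7 after surgery, and held GFP-positive sorted cells. All mice, sham included, were 7 to 8 weeks old and heterozygous for PirtEGFPf on a C57BL/6 background, an allele in which a membrane-bound green fluorescent protein takes the place of the *Pirt* reading frame and follows the *Pirt* promoter. Neurons without *Pirt* activity could be missed by the sort. Littermates of both sexes received the same operation, so surgery and litter cannot be told apart. Each surgery thus had 2 replicates, 1 library per sex. A pool hides the spread between its mice, so p-values measure the spread between libraries.

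The kappa opioid receptor couples to Gi/o proteins and, when bound by dynorphin, lowers cyclic AMP, closes calcium channels and opens inward-rectifier potassium channels. On peptidergic sensory neurons, which release substance P and CGRP, kappa agonists that stay in the periphery reduce pain and neurogenic inflammation. The other markers were *Fgg*, the fibrinogen gamma chain, known as a clotting protein of the liver; *Chrm2*, the M2 muscarinic acetylcholine receptor; and *Galr1*, a receptor for the peptide galanin. *Chrm2* and *Galr1* also encode receptors that couple to Gi/o proteins.

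Levels are CPM, the UMIs of a gene per 1000000 UMIs summed over the members of a library. They are listed with the sham libraries first and the male library of each surgery before the female one. The libraries held 195684124 to 237069156 UMIs, and their members 8952508, 9841815, 2847253 and 3440479. Median depths per member were 53290, 37070, 56748 and 44902 UMIs. A pair of libraries shared 215 to 513 cell barcodes, and no barcode was shared among members. None of the members had the *Apoe* level of the sorted non-neuronal cells (at least 300 UMIs per 10000).

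The members matched their label as peptidergic nociceptors. *Tac1*, the substance P precursor, stood at 7856, 8113, 7007 and 8520 CPM and was detected in 531 of the 532 cells. *Trpv1*, the heat and capsaicin channel, was detected in 527. Several lists of other neuron types were low: the summed level of 4 NP1 markers was at most 18.1 CPM in any library, that of 4 NP2 markers at most 19.1, and that of 3 PEP5 markers at most 4.36. Other lists were not: 5 PEP3/4 markers summed to 153 to 207 CPM, against 194 to 309 in other *Sprr1a*-low neurons, and 7 neurofilament markers to 257 to 363 CPM, against 700 to 1004. The 4 PEP2 markers summed to 20.0 to 27.0 CPM, near the 22.9 to 29.4 of other *Sprr1a*-low neurons. The 3 NP3 markers summed to 3.78 to 6.40 CPM, against 2.76 to 6.70. Those of C-low-threshold mechanoreceptors, 5 markers, summed to 5.23 to 16.2 CPM, against 137 to 192. The endothelial list did not exceed 1.05 CPM. The 7 markers of satellite glia and Schwann cells summed to 1874, 1853, 717 and 687 CPM in members, against 106843 to 113147 in sorted non-neuronal cells. Glial RNA was thus higher in the members of both sham libraries than in those of both CCI libraries, and its part in the comparisons of surgery is measured with them.

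The defining genes were chosen by the rule and are described without a test. *Oprk1* (GRCm38, chromosome 1, 5588466 to 5606131, plus strand) stood at 41.0, 45.6, 40.4 and 51.2 CPM. Many members passed on a single *Oprk1* UMI, 69, 133, 15 and 31 of them. *Fgg* (chromosome 3, 83007724 to 83015049, plus strand) had 108, 120, 111 and 215 CPM in members and 7.05, 8.46, 8.90 and 16.6 in *Comp* PEP1-like cells, the 1168 cells that met the same rule with *Comp* in place of *Oprk1*. *Chrm2* (chromosome 6, 36388084 to 36528414, plus strand) had 46.5, 33.9, 40.0 and 30.2 CPM, against 9.04, 11.1, 5.76 and 5.50. *Galr1* had 54.6, 50.2, 50.2 and 59.6 CPM, against 7.14, 9.72, 6.73 and 6.56. In each library all 3 genes were several-fold above both the *Comp* class and the *Sprr1a*-low neurons outside the PEP1-like cells. The 209 PEP1-like cells with both *Oprk1* and *Comp* UMIs were closer to members. There *Fgg* had 29.1 to 52.6 CPM, *Galr1* 26.8 to 36.2 and *Chrm2* 23.5 to 43.0. *Chrm2* was higher in these cells than in members in Female-Sham (36.3 against 33.9 CPM) and lower in the rest. It thus did not set members apart from them in every library.

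The stretch just before the transcription start of the markers is printed because *Fgg* and *Chrm2* were raised in the same cells and lie on different chromosomes. RefSeq's promoter table (GRCm38.p6) matched 2 of the 4 markers, and the 250 bases upstream of each start are given 5′ to 3′ on the plus strand, which both genes use. For *Fgg* this is chr3:83007474-83007723 and for *Chrm2* chr6:36387834-36388083. Capitals mark ATTGG, the reverse complement of the CCAAT box, which begins 159 bases before the *Chrm2* start.
Fgg: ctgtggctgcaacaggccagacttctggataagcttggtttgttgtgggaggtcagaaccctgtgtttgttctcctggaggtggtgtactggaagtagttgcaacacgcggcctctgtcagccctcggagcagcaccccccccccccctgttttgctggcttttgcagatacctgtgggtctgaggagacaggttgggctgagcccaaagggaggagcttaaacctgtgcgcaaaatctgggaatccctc
Chrm2: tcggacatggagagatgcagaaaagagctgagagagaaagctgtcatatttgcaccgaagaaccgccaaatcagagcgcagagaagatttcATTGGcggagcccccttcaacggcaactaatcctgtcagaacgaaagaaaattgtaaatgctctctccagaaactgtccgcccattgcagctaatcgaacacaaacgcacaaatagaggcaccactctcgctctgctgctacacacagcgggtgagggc
A CCAAT letter run on either strand was held by 33.8% of the 32851 promoters of the same length, and no run was found in *Fgg*. Of the other runs searched on both strands, the TATA box TATAAA is held by 12.4% of promoters, the cAMP response element TGACGTCA by 1.55%, the homeodomain letters TAATTA by 4.84% and the AP-1 letters TGACTCA by 4.46%, and none was found in either window. These are letter matches only, not binding sites.

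Members did not all carry every marker. *Fgg* was detected in 308 of 532 members (57.9%), *Chrm2* in 384 (72.2%) and *Galr1* in 408 (76.7%). All 3 were detected in 196 members, 2 of them in 209, 1 in 94 and none in 33. For comparison, among 692 *Th*-high low-threshold mechanoreceptor-like cells, whose median depth was higher in every library, *Fgg* was detected in 18, *Galr1* in 12 and *Chrm2* in 0, which allows a share of cells with a UMI, not of cells that express the gene, of up to 0.434%. *Fgg* was spread unevenly. The tenth of members with most *Fgg* held 42.2%, 40.2%, 31.6% and 27.3% of its normalized signal, while the median member had 0.177, 0.261, 0.705 and 1.93 UMIs per 10000. The share of members with an *Fgg* UMI was 52.5%, 55.3%, 66.7% and 73.6%, and after thinning each cell to 10000 UMIs it was 39.4%, 43.1%, 44.4% and 59.7%. Female-CCI was thus the highest library in level, in median and in both shares of members, and the lowest in the share of signal held by the members with most *Fgg*.

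**Figure D1:**
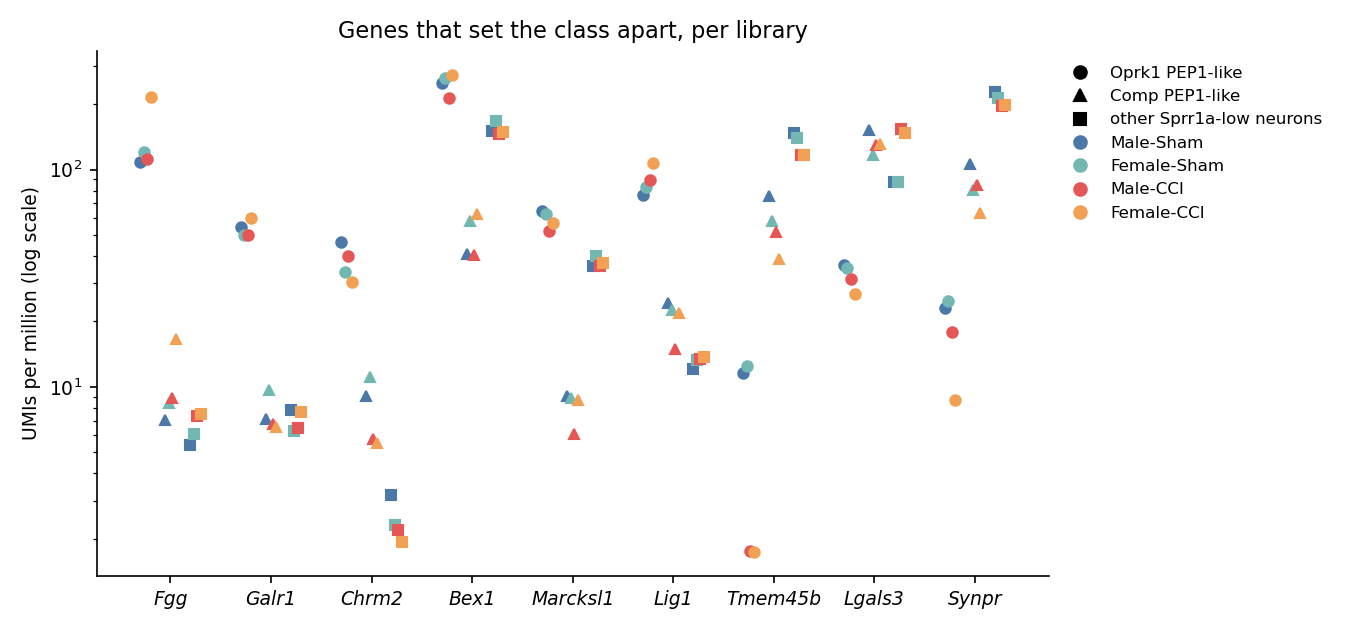
Levels (CPM, log axis) of 9 genes in Oprk1 PEP1-like neurons (circles), Comp PEP1-like neurons (triangles) and Sprr1a-low neurons outside the PEP1-like cells (squares), with 1 point per library coloured by library. Fgg lies at 108 to 215 in the Oprk1 class and at 7.05 to 16.6 in the Comp class, while Tmem45b, Lgals3 and Synpr lie below the Comp class in every library.

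Beside the markers, the genes that most set members apart from *Comp* cells, by the lowest ratio over the 4 libraries with 10 CPM added, were *Bex1*, *Marcksl1*, *Tesc*, *Chst15*, *Kcnc4*, *Lig1*, *Cdk18*, *Klhdc8a*, *Steap3*, *Kirrel3*, *Samsn1* and *Igfbp5*. *Bex1*, a small adaptor protein of neurons, had a ratio of 3.92 to 5.11, and *Marcksl1*, an actin-binding substrate of protein kinase C, of 3.59 to 3.90. *Lig1*, DNA ligase I, had 2.50 to 3.99, and its ratio to other neurons was 3.88 to 4.91. Ratios to other neurons also had 10 CPM added to both sides. *Kcnc4*, a fast-gating potassium channel subunit, and *Tesc*, a calcium-binding protein, were not above other neurons in every library, with ratios to those of 0.549 to 1.05 and 0.977 to 2.24. Lower in members than in *Comp* cells were *Ctxn3*, *Tmem45b*, *Trappc3l*, *Lgals3*, *Gm765*, *Chp2*, *Synpr*, *Aprt*, *Mrgpra3* and *Susd2*. *Tmem45b* had a ratio of 0.191 to 0.330 and *Lgals3*, galectin 3, of 0.261 to 0.357. Most of the higher genes also exceeded PEP1-like cells with neither *Oprk1* nor *Comp*, as *Lig1* did (21.9, 33.8, 21.5 and 17.8 CPM there). *Klhdc8a* and *Kcnc4* did not in every library. In Male-Sham cells with neither they had 80.2 and 46.6 CPM, against 76.7 and 34.1 in members. All of these ratios follow a choice of cells by measured UMIs and are descriptions.

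*Oprk1* was not the sole opioid receptor gene detected. *Oprm1*, the mu receptor, stood at 15.3, 13.4, 19.3 and 20.1 CPM and was seen in 252 members (47.4%). *Oprl1*, the nociceptin receptor, had 3.02, 2.44, 1.05 and 1.74 CPM and was seen in 50 members (9.40%). No UMI of *Oprd1*, the delta receptor, was found in the 532 members. Of the opioid peptide precursors, *Pomc* stood at 9.61, 8.23, 7.38 and 8.43 CPM, *Penk* had 2, 12, 0 and 0 UMIs, and *Pdyn*, which encodes dynorphin, 1 UMI in all.

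The first question was whether the number of these cells differed after nerve injury. Male-Sham held 162 members, 4.15% of its filtered cells (exact 95% interval 3.54 to 4.82), and Female-Sham 253, or 3.93% (interval 3.47 to 4.43). Male-CCI held 45, or 1.35% (interval 0.984 to 1.80), and Female-CCI 72, or 1.74% (interval 1.36 to 2.18). The mean was 4.04% ± 0.154 (SD, n = 2) in sham and 1.54% ± 0.276 (n = 2) in CCI, a ratio of 2.62, and the intervals of the surgeries did not overlap. An exact permutation test of 2 against 2 libraries cannot give a two-sided p below 0.333. The share also counts how many other cells were sorted, and the rule removes *Sprr1a*-high cells. Among *Sprr1a*-low PEP1-like cells, members made up 17.5%, 16.4%, 10.8% and 12.9%, or 16.9% ± 0.756 in sham and 11.9% ± 1.47 in CCI (SD, n = 2). After thinning every cell to 10000 UMIs these shares were 9.35%, 10.4%, 9.09% and 8.09%, with overlapping intervals. Only 36, 74, 14 and 19 members were left. With so few cells the overlap cannot decide whether the share within PEP1-like cells differed at matched depth. The thinned share of all cells was 0.984%, 1.21%, 0.441% and 0.483%. The intervals cover counting error only.

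**Figure D2:**
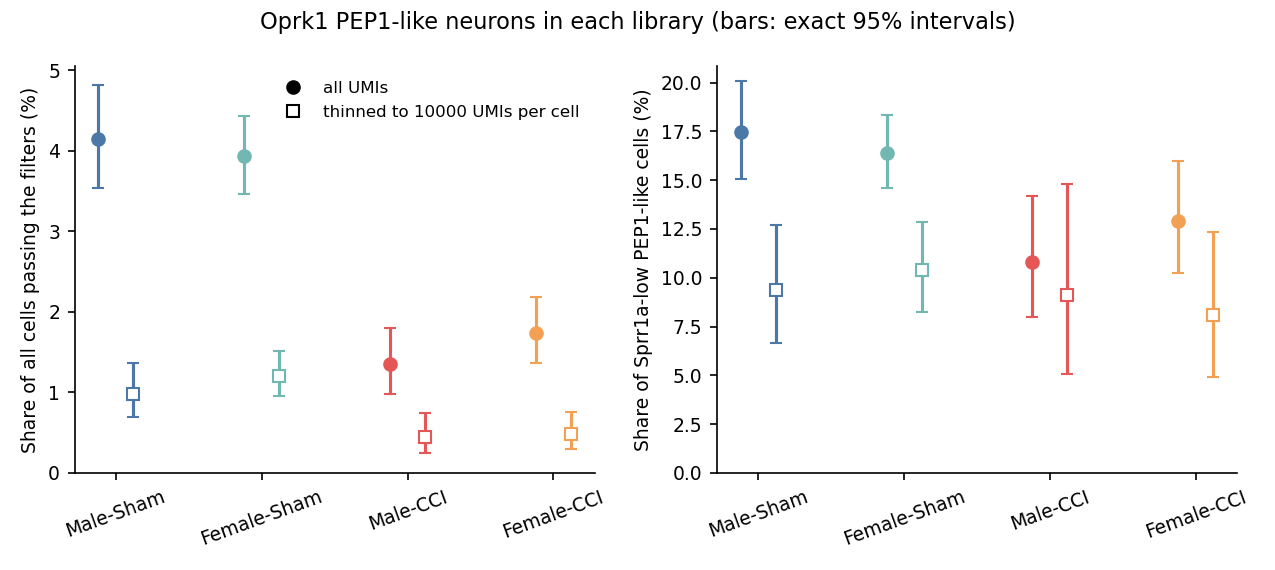
Share of Oprk1 PEP1-like neurons (percent) among all cells that passed the filters (left) and among Sprr1a-low PEP1-like cells (right) in each library, with all UMIs (filled) and after thinning to 10000 UMIs per cell (open); bars are exact 95% intervals. The left share is 4.15% and 3.93% in sham and 1.35% and 1.74% in CCI, while the intervals of the thinned shares on the right overlap.

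At the limit of the rule, the highest *Sprr1a* value inside was 0.252, 0.399, 1.60 and 1.37 UMIs per 10000 and the lowest outside was 24.0, 23.6, 1.84 and 5.48. The sham libraries therefore had a wide gap at the limit and Male-CCI almost none. *Sprr1a* was detected in 5, 10, 34 and 46 members, so most members of CCI libraries carried at least 1 *Sprr1a* UMI. Only 1, 1, 1 and 4 *Oprk1*-positive, *Comp*-negative PEP1-like cells lay above the limit. *Sprr1a*-high PEP1-like cells numbered 7, 20, 139 and 142 and held 1, 3, 1 and 8 *Oprk1* UMIs in all.

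The second question was which genes differed between CCI and sham within members. UMIs were summed over the members of each library and tested across libraries with edgeR's quasi-likelihood test. A gene was called at a Benjamini-Hochberg adjusted p below 0.05 with an absolute log2 fold change above 0.5. Of 11815 genes tested, 412 (3.49%) were called, 201 higher (1.7%) and 211 lower (1.79%) in CCI. The median log2 fold change over all genes was 0.0027. The number of calls differed between settings: 170 genes were called by DESeq2, 141 without Male-Sham, 151 without Female-Sham and 20 of 4455 after thinning. With 1 sham library left, that library is assumed to vary like the CCI libraries.

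The largest rises among genes at 20 CPM or more were those of *Gm8797*, *Serpinb1a*, *Pappa*, *Sema5a*, *Trappc3l*, *Onecut2*, *Cplx2*, *Thy1*, *Fgf12* and *Cpne6*. *Gm8797*, a predicted gene whose reads may be shared with near-identical copies, had 11.6, 8.54, 55.1 and 44.5 CPM. It rose by 2.29 ± 0.159 (log2, SE; edgeR adjusted p = 2.53e-07), and it was detected in 48.1% and 28.9% of sham members and in 91.1% and 79.2% of CCI members. *Pappa*, a protease that frees insulin-like growth factors, had 11.3, 16.1, 51.6 and 51.2 CPM and rose by 1.89. *Serpinb1a*, a protease inhibitor, had 11.7, 10.8, 58.7 and 41.6 CPM and rose by 2.13. For all 3 genes both CCI libraries were above both sham libraries. In members with no *Sprr1a* UMI *Gm8797* rose by 2.19, while *Pappa* stood at 0.55 ± 0.302 and was not called (edgeR adjusted p = 0.389). That comparison held only 11 and 26 CCI members, against 157 and 243 in sham. A call lost there does not show that a change is absent. Most *Serpinb1a* UMIs of the CCI libraries were in few cells, since 1 cell held 55.7% of them in Male-CCI and 1 cell 50.3% in Female-CCI. Without the highest cell of each library *Serpinb1a* stood at 1.28, and in members with at least 2 of *Fgg*, *Chrm2* and *Galr1* at 0.50 (edgeR adjusted p = 0.222).

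Several other rises came from few cells too. In CCI, 6 members had fewer than 10 *Tac1* UMIs, 2 in Male-CCI and 4 in Female-CCI, whereas the remaining 526 members of all libraries had at least 21. None of these 6 cells had an *Fgg* UMI and 4 had no *Trpv1* UMI. Among *Comp* cells, 34, 35, 29 and 35 were this low in *Tac1*. The 6 members held 44.0% and 76.2% of the UMIs of *Thy1*, a surface glycoprotein of neurons, and 70.3% and 72.9% of those of *Fgf12*, which regulates sodium channels. *Thy1* stood at 61.3, 55.0, 172 and 166 CPM with them and at 101 and 43.2 CPM in CCI without them. *Fgf12* stood at 45.9, 37.8, 106 and 117 CPM with them and at 32.9 and 34.6 in CCI without them. They also held 4.79% and 69.9% of the *Serpinb1a* UMIs, and without them *Serpinb1a* stood at 58.2 and 13.7 CPM in CCI. When cells with fewer than 10 *Tac1* UMIs were left out, a choice made after the data were seen, the log2 fold change of *Fgf12* was -0.30 and that of *Onecut2* -0.38. With these cells removed 365 genes were called, 144 higher and 221 lower, of which 292 were among the 412.

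**Figure D3:**
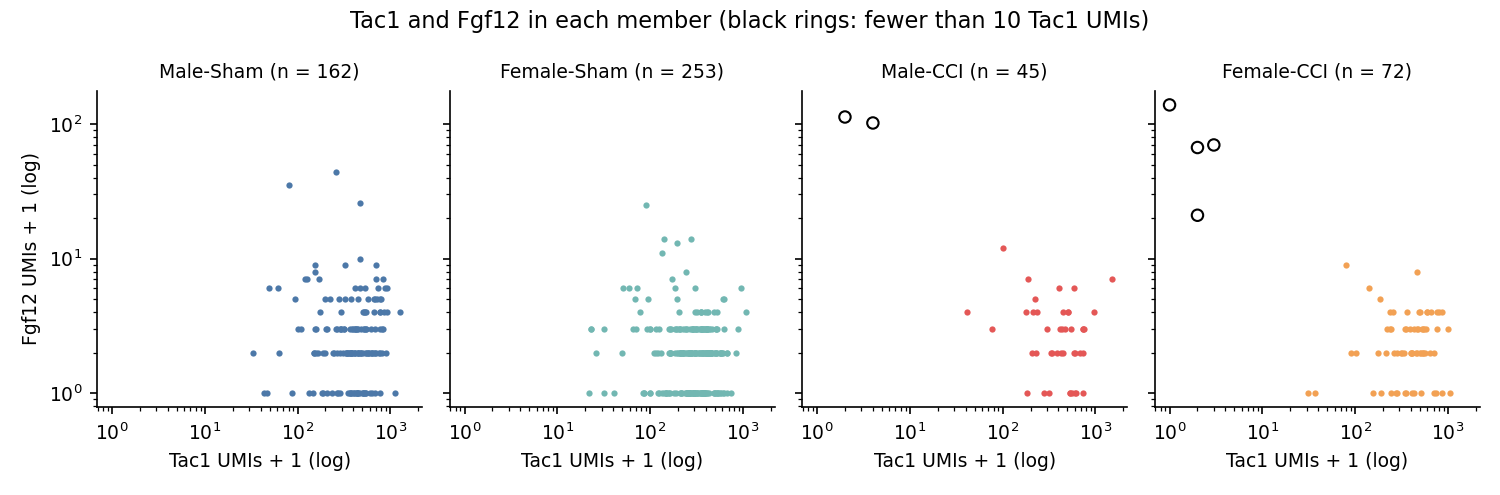
UMIs of Tac1 and Fgf12 (each plus 1, log axes) in every Oprk1 PEP1-like neuron, with 1 panel per library; black rings mark members with fewer than 10 Tac1 UMIs. No sham member is ringed, while 2 Male-CCI and 4 Female-CCI members are, most of them among the highest in Fgf12.

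Among the 10 largest falls of called genes at 20 CPM or more were those of *Igfbp4*, *Apoe*, *Selenop*, *Gpm6b*, *Fxyd1*, *Ednrb*, *Fabp7*, *Sparc* and *Mt1*. *Apoe*, a lipid carrier made by satellite glia, had 1356, 1374, 485 and 461 CPM and fell by 1.54 ± 0.062 on the log2 scale (edgeR adjusted p = 3.62e-10). *Fabp7*, a glial fatty acid binding protein, had 369, 332, 151 and 146 CPM and fell by 1.25. Of the 211 genes called lower, 100 (47.4%) were at least 2-fold above the sham level of members in the sorted *Apoe*-high cells, as were 52 of the 201 called higher (25.9%) and 1955 of the 11815 tested (16.5%). Of the 7 markers of satellite glia and Schwann cells, 5 fell, with a median of -1.25. In members with at most 10 *Apoe* UMIs per 10000, another choice made after the data were seen, none of the 5 tested glial markers was called, and *Apoe*, *Selenop* and *Fabp7* stood at 0.00, 0.04 and 0.13 on the log2 scale. The choice caps *Apoe* itself, so its value near 0 follows from the choice. Other glial RNA is not independent of that limit, and these values are a description. That comparison called 290 genes, 183 higher and 107 lower.

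**Figure D4:**
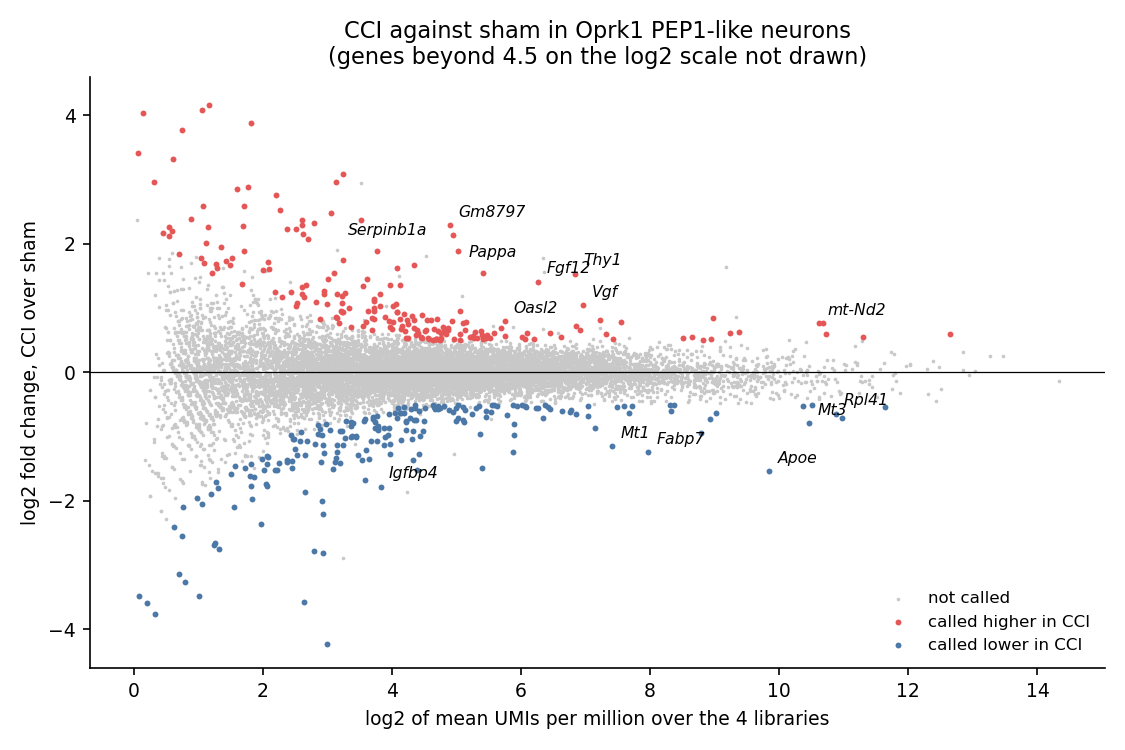
log2 fold change of CCI over sham against mean level (log2 CPM) for the genes tested in Oprk1 PEP1-like neurons; coloured points were called by edgeR, and genes beyond 4.5 are not drawn. Gm8797, Pappa and Serpinb1a lie highest among the named genes, and Apoe and Fabp7, both glial, lie lowest at high levels.

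A set of calls was made with and without either group of cells. With all members, without *Tac1*-low cells, without *Apoe*-richer cells, with members that carried at least 2 of *Fgg*, *Chrm2* and *Galr1*, and with the highest cell of each gene and library removed, 108 genes were called each time, 54 higher and 54 lower. This set was chosen after the values were seen. In members with no *Sprr1a* UMI 48 of the 108 were called again and all 108 had the same direction. With at most 5% mitochondrial UMIs 96 were called. Both comparisons used cells among those that chose the 108, so they are no independent evidence. *Mt3*, metallothionein 3, which binds zinc, had 1792, 1771, 1091 and 976 CPM and fell by 0.79 (edgeR adjusted p = 1.2e-06). *Mt1*, a second metallothionein, had 207, 263, 118 and 95.6 CPM and fell by 1.15, and by 0.72 in *Apoe*-low members. *Fxyd2*, the gamma subunit of the sodium pump, had 2544, 2426, 1628 and 1431 CPM and fell by 0.71. *Insig1*, a sterol sensor, fell by 0.76, and *Mvd* and *Erg28*, of sterol synthesis, fell by 0.62 and 0.80. For each gene with printed levels both CCI libraries were below both sham libraries. Among rises, *Nos1*, neuronal nitric oxide synthase, had 24.4, 25.8, 46.0 and 40.4 CPM and rose by 0.77. *Meg3*, a long non-coding RNA, had 2048, 2018, 3109 and 2902 CPM and rose by 0.56. *Sox4*, a transcription factor, rose by 0.59, *Slc5a7*, the choline transporter, by 0.78, and *Tgfb1*, a secreted growth factor, by 0.90.

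**Figure D5:**
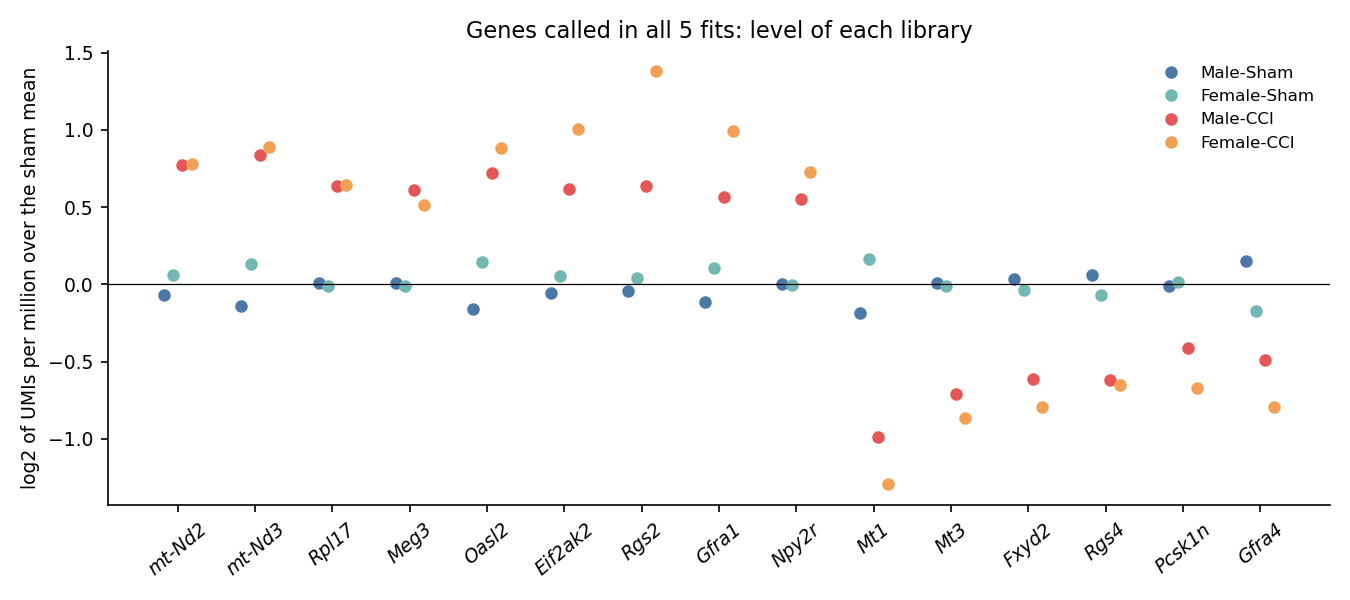
Level of 15 genes in each library relative to the sham mean (log2 of CPM over the sham mean) in Oprk1 PEP1-like neurons, with 1 point per library. The genes were called with all members and in the 4 restricted comparisons; points of CCI libraries lie above those of sham for mt-Nd2 to Npy2r and below them for Mt1 to Gfra4.

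The rule's own genes, *Oprk1* among them, were left out of the test, and the receptor genes *Chrm2* and *Galr1* were not called. *Chrm2* differed by -0.21 ± 0.173 (log2, SE; edgeR adjusted p = 0.545) and *Galr1* by 0.07 ± 0.105 (adjusted p = 0.776). *Fgg* differed by 0.53 ± 0.437 (edgeR adjusted p = 0.636), with Female-CCI far above the other 3 libraries. *Oprm1* differed by 0.45 ± 0.164 (edgeR adjusted p = 0.114), *Oprl1* by -0.93 (adjusted p = 0.291) and *Pomc* by -0.17 (adjusted p = 0.732). Of the remaining galanin and muscarinic receptors, *Galr2* had 9 UMIs in sham and 0 in CCI, *Galr3*, *Chrm3* and *Chrm5* had none, *Chrm4* had 1 and *Chrm1* 1, 1, 4 and 0. *Gal*, the peptide that *Galr1* binds and a gene known to be induced by axon injury, had 284, 275, 1493 and 265 CPM. One Male-CCI cell held 3128 of that library's 4251 *Gal* UMIs (73.6%), and without it the level was 407 CPM.

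In the signalling that these receptors share, 32 genes of Gi/o proteins, inward-rectifier potassium channels, adenylyl cyclases and RGS proteins were tested, and 2 rose and 1 fell, with a median of 0.01. Beside this and the later list counts stand the shares over all 11815 genes, 1.7% called higher and 1.79% lower. *Rgs4*, which shortens Gi/o signals, had 148, 135, 92.0 and 89.8 CPM and fell by 0.64 ± 0.0819 (edgeR adjusted p = 0.000161). *Rgs2*, which acts mainly on Gq, had 10.5, 11.2, 16.9 and 28.2 CPM and rose by 1.07 ± 0.206 (adjusted p = 0.00443). Both were called in all 5 comparisons above but not in members with no *Sprr1a* UMI, where *Rgs4* stood at -0.34 and *Rgs2* at 0.94. *Adcy1*, a calcium-stimulated adenylyl cyclase, rose by 2.38 from 36 UMIs in sham to 63 in CCI, but stood at 0.67 without *Tac1*-low cells and was not called. Of 20 receptors for prostanoids, bradykinin and other inflammatory signals, 3 rose and 1 fell, with a median of 0.14. *Npy2r*, a Gi/o-coupled receptor for neuropeptide Y, had 32.6, 32.4, 47.8 and 53.8 CPM and rose by 0.64. *Adra2a*, the alpha-2A adrenoceptor, rose by 1.21 and *F2r*, a thrombin receptor, by 1.73, both at under 14 CPM. *P2ry1*, an ADP receptor, fell by 2.75 from 82 UMIs to 4.

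Of 19 neuropeptide and granule genes, 2 rose and 1 fell, with a median of 0.06 (all genes: 1.7% higher, 1.79% lower). *Vgf*, a granule protein cleaved to peptides, had 74.8, 87.2, 155 and 181 CPM and rose by 1.05 ± 0.0969 (edgeR adjusted p = 5.9e-06). *Bdnf*, a neurotrophin, had 131, 149, 197 and 208 CPM and rose by 0.52. In members with at least 2 of the other markers neither was called, at 0.78 for *Vgf* (edgeR adjusted p = 0.139) and 0.43 for *Bdnf* (adjusted p = 0.299). *Pcsk1n*, which inhibits a peptide-processing enzyme, had 3737, 3806, 2832 and 2375 CPM and fell by 0.54. None of the 19 genes was called in members with at most 5% mitochondrial UMIs. Among 19 transduction channels only *Asic3*, an acid-sensing channel, was called, with 46.8, 38.5, 30.6 and 21.2 CPM and a fall of 0.75. *Asic3* was not called in *Apoe*-low members. *Trpv1* stood at 275, 301, 273 and 283 CPM and was not called.

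Among 14 sodium channel genes *Scn8a*, the pore of Nav1.6, rose by 0.93 (13.4, 9.86, 21.4 and 23 CPM), and *Fgf12* was described above. *Scn8a* was not called without *Tac1*-low cells (-0.13) or with at least 2 of the other markers (0.30). Of 37 potassium channel genes, *Kcna1* was called higher and *Kcnip2* and *Kcnk18* lower (all genes: 1.7% higher, 1.79% lower). The *Kcna1* rise of 1.19 rested on 1 Female-CCI cell with 46 of that library's 62 UMIs. *Kcnk18*, the background channel TRESK, had 49 UMIs in sham and 3 in CCI, a sham to CCI ratio of 5.46 (counting interval 1.76 to 27.4). Counting intervals of UMI ratios, here and below, treat UMIs as independent draws from pooled libraries. They leave out the spread between cells, libraries and mice. *Kcnip2*, a partner of Kv4 channels, fell by 2.66 from 77 UMIs to 4. Of 16 receptors for neurotrophins, GDNF-family ligands and gp130 cytokines, *Gfra1* rose by 0.80 and *Gfra2*, *Ntrk2* and *Gfra4* fell by 2.20, 0.87 and 0.65. Of these 4, 3 were called again in *Apoe*-low members and all 4 in the other 3 restricted comparisons. With at most 5% mitochondrial UMIs 2 were called again, as were 2 with no *Sprr1a* UMI. *Ntrk2* was not called in *Apoe*-low members or with at most 5% mitochondrial UMIs.

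Of 37 injury and regeneration genes, 9 rose and none fell (all genes: 1.7% higher, 1.79% lower), with a median of 0.39 against 0.0027 over all genes. Besides *Serpinb1a*, the largest rises were those of *Inhbb*, an activin subunit, *Sema6a*, a guidance protein, and *Tubb6*, a tubulin, which had 13, 33 and 25 UMIs in CCI. *Sox11* and *Smad1*, transcription factors of axon regrowth, rose by 0.62 and 0.52. *Atf3*, an injury-induced transcription factor, differed by -0.03 ± 0.0793 (edgeR adjusted p = 0.863) and *Gap43*, a growth cone protein, by 0.47 (adjusted p = 0.000242), below the size needed for a call. The fold change of *Serpinb1a* was -0.69 (log2) when members with a *Sprr1a* UMI were left out of all libraries. In members that carried at least 2 of the other markers, 2 of 34 injury genes were called. In members with no *Sprr1a* UMI, only 11 and 26 cells in CCI, 1 of 32 was called. *Serpinb1a* stood at 3.02 and 8.69 CPM in CCI members without a *Sprr1a* UMI and at 75.5 and 55.7 CPM in those with 1 or more. Of 15 immediate early genes, *Fos* fell by 0.68 (163, 160, 113 and 90.7 CPM) and *Ier2* by 0.56, and no gene rose. In *Apoe*-low members none was called, with *Fos* at -0.28 and *Ier2* at -0.35. Of 27 sensory identity transcription factors, *Onecut2*, *Nfix* and *Pou4f3* rose, the latter by 0.89 (16.0, 14.7, 29.9 and 27.6 CPM). None of the 3 was called without *Tac1*-low cells, where *Nfix* stood at -0.11 and *Pou4f3* at 0.53 (edgeR adjusted p = 0.053). In the same list *Pou4f2* went from 37 UMIs to 1, a ratio of 12.4 (counting interval 2.09 to 502.0).

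Of 21 interferon and MHC class I genes, 5 rose and none fell, with a median of 0.47 (all genes: 1.7% higher, 1.79% lower). *Oasl2*, an interferon-induced 2′-5′ oligoadenylate synthetase-like gene, had 35.3, 43.5, 65.0 and 72.7 CPM, rose by 0.80 and was detected in 75.9%, 70.0%, 91.1% and 81.9% of members. *Irf7*, a transcription factor of the interferon response, had 5.14, 7.82, 17.2 and 18.6 CPM and rose by 1.45. *Ifit3* rose by 2.37 and was detected in 8.64%, 11.5%, 31.1% and 31.9% of members. *Isg15* rose by 1.45, but in CCI it was seen in 5 and 6 cells, of which the highest held 51.2% and 43.3% of its UMIs. Of these 5 genes, 3 were called again in *Apoe*-low members, 4 with the highest cells removed and all 5 in the other 2 restricted comparisons, but only 1 in members with no *Sprr1a* UMI.

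Of the 13 genes of the mitochondrial genome, 5 rose and none fell, with a median of 0.42 (all genes: 1.7% higher, 1.79% lower). *mt-Nd2*, a complex I subunit, had 1111, 1216, 1990 and 1994 CPM and rose by 0.77 ± 0.0634 (edgeR adjusted p = 1.57e-06). *mt-Nd3*, *mt-Nd6*, *mt-Nd1* and *mt-Co3* rose by 0.85, 0.79, 0.76 and 0.59. The 4 restricted comparisons each called 5 mitochondrial genes, in *Apoe*-low members 4 of them the same. The nuclear genes of oxidative phosphorylation did not rise with them: 1 of 86, *Ndufa3*, fell past the size limit, the median was -0.16, and 31 had an adjusted p below 0.05 with a negative value against 2 with a positive one. Over all 11815 genes at that limit 442 were negative and 443 positive. The median mitochondrial share of UMIs per member was 3.21%, 3.69%, 4.29% and 4.25%, and it moved with these calls. In members with at most 5% mitochondrial UMIs 3 of 13 mitochondrial genes were called higher and 1 lower. The part of RNA quality was not tested.

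Of 77 cytosolic ribosomal protein genes, 6 rose and 4 fell, with a median of -0.02 (all genes: 1.7% higher, 1.79% lower). *Rpl17* had 525, 516, 808 and 814 CPM and rose by 0.63, *Rps12* rose by 0.60, and *Rpl41* fell by 0.65. Many of these genes have near-identical copies, so their values are uncertain. Of the 46 PEP1 markers that the study listed on these samples, which is no independent evidence, *Syp* rose by 0.51 and *Asic3* and *Calml4* fell. *Syp* did not rise without *Tac1*-low cells (-0.0042). In each of the 4 restricted comparisons only 1 of the 3 was called again, and in *Apoe*-low members neither fall was.

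Some low-level genes of other neuron types also fell. *Mrgprd*, a receptor of nonpeptidergic neurons, went from 51 UMIs in sham to 0 in CCI, at least 5.69-fold lower with a floor of 3 UMIs over the group. *Mrgpra3*, an itch receptor, went from 70 UMIs to 2, a ratio of 11.7 (counting interval 3.12 to 98.6), but 1 cell held 86.2% and 82.9% of its UMIs in the sham libraries. Among markers of large myelinated neurons, *Nefh*, a neurofilament, rose by 0.81 (119, 97.3, 203 and 178 CPM), but no gene of that list was called higher in any of the 4 restricted comparisons.

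The third question was whether the response to CCI differed from that of *Comp* PEP1-like cells of the same libraries. The test was the interaction of class and surgery, with the library as a block. Of 13139 genes, 62 (0.472%) were called by edgeR at an adjusted p below 0.05, 37 (0.282%) with a higher and 25 (0.19%) with a lower response in members. Among *Comp* cells alone 444 of 13211 genes (3.36%) were called for CCI against sham. Since both classes came from the same 4 libraries, their values are given side by side. *Gm8797* rose by 2.29 in members and 2.22 in *Comp* cells and *mt-Nd2* by 0.77 and 0.78. *Mt3* fell by 0.79 and 0.76.

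At the higher end of the interaction were *Vsnl1*, *Trappc3l*, *Sv2b*, *Fgf12* and *Thy1*, which encode a calcium sensor, a trafficking protein, a synaptic vesicle protein, the sodium channel regulator and the surface glycoprotein. *Trappc3l* had 10.8, 8.43, 28.4 and 33.1 CPM in members and 140, 96.9, 134 and 119 CPM in *Comp* cells, where it is abundant. *Thy1* in *Comp* cells had 387, 357, 434 and 426 CPM. Without cells of fewer than 10 *Tac1* UMIs in either class 21 interaction genes were called, 2 higher and 19 lower, and none of these 5 was among them.

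At the lower end were *Rgs5*, *Rarres1*, *Paqr5*, *Tmem45b* and *Grik1*. *Tmem45b*, a membrane protein, had 11.6, 12.5, 1.76 and 1.74 CPM in members and 75.4, 58.3, 51.5 and 38.7 CPM in *Comp* cells. Its response was 2.21 ± 0.368 log2 units lower in members (edgeR adjusted p = 0.0039). *Rarres1*, a retinoid-induced gene, had 14.1, 16.3, 0.702 and 0.872 CPM in members and 22.1, 20.5, 14.2 and 13.4 in *Comp* cells. The CCI change of *Tmem45b* was -2.78 in members and -0.56 in *Comp* cells, and that of *Rarres1* -4.23 and -0.62 (log2). Members of the CCI libraries held 11 and 5 UMIs of them. *Rgs5*, an RGS protein also known from mural cells, went from 94 UMIs in sham members to 0 in CCI, at least 10.5-fold lower, and had 23.6, 12, 34.3 and 38.5 CPM in *Comp* cells. The fall of *Rgs5* within members was not called (edgeR adjusted p = 0.16), nor was its change of 1.05 in *Comp* cells (adjusted p = 0.244). Few cells carried these RNAs. *Rgs5* was detected in 9 and 11 sham members, of which the highest held 44.1% and 38.5% of the UMIs. *Tmem45b* was detected in 21 and 27 sham members and *Rarres1* in 18 and 36.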

How the data were processed

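UMI counts per gene and cell were deposited by the authors as 4 Cell Ranger matrices on mm10. The version is 2.1.1 per the labels and 3.0.2 per the file headers. Scrublet's automatic threshold marked 2, 121, 0 and 0 cells, so the highest-scoring cells, in the number the study lists, were left out only as an alternative, and 21, 35, 6 and 1 members were among them. The members and gene lists were chosen with earlier results of these data known.

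Counts were summed over the members of each library and tested with edgeR 4.0.16 in R 4.3.3 (filterByExpr, TMM factors, robust quasi-likelihood fit, Benjamini-Hochberg adjustment over all genes tested). The 9 genes that the rule used were left out. The study's limits for a call were kept, but its per-cell test was not used, since cells are not replicates. DESeq2 1.42.0 was an alternative. On simulated counts the comparison of surgeries called 85% of genes changed by 1 log2 unit and 6 unchanged genes, and the interaction called 71% and 12. The simulation gave every gene the median dispersion and changed only genes above a count limit. It did not gather UMIs in few cells, so these rates do not cover calls that rest on few cells or few UMIs. Shares have Clopper-Pearson 95% intervals. Sex was a block only in an alternative. In the main comparison of surgeries the spread between the libraries of a surgery thus includes the difference between sexes.

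Genes were named by these rules: up to 4 called genes of each list with the largest change, the 10 largest rises and falls among called genes of at least 20 CPM with the same direction in both sexes, 5 genes at each end of the interaction, and for the class the 15 highest and 10 lowest ratios to *Comp* cells. Further genes named from the 108 called in all 5 comparisons, and *Atf3*, *Gap43*, *Gal* and *Trpv1*, were chosen after their values were seen. Some genes that these rules name are not reported here.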

Additional observations from a re-analysis of the deposited data

Results flagged for a closer look

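The CCI response of 10 genes differed between *Oprk1* and *Comp* PEP1-like neurons by edgeR's interaction test. The difference (log2, members minus *Comp* cells) was 2.18 for *Vsnl1*, 1.59 for *Trappc3l*, 1.49 for *Sv2b*, 1.46 for *Fgf12* and 1.33 for *Thy1*. It was -9.91 for *Rgs5*, a fitted value against 0 UMIs in CCI members and no measure of size, -3.61 for *Rarres1*, -2.97 for *Paqr5*, -2.21 for *Tmem45b* and -1.47 for *Grik1*. All 5 positive differences lost their call when cells with fewer than 10 *Tac1* UMIs were left out, and none of the 10 was called in cells with no *Sprr1a* UMI. There the differences were 1.83 for *Vsnl1*, -1.94 for *Tmem45b*, -2.38 for *Rarres1* and -2.14 for *Paqr5*, 0.70 for *Fgf12*, 0.22 for *Sv2b*, -0.067 for *Grik1*, -0.72 for *Trappc3l* and -0.50 for *Thy1*. *Rgs5*, *Rarres1* and *Tmem45b* were called in each of the 4 comparisons added after seeing the data.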

How the results depend on the processing

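In place of the 412 genes called for CCI, 170 were called by DESeq2, 221 in members with no *Sprr1a* UMI, 265 in members with at least 2 of *Fgg*, *Chrm2* and *Galr1* (a choice added after the data were seen) and 20 after thinning to 10000 UMIs. Leaving out 1 library in turn gave 141 to 459 calls, with the lowest 2 values without a sham library. The sex block, checked because the libraries pair by sex, gave 482 calls, 410 of them among the 412, and the male minus female differences of sham and CCI correlated at 0.14 across genes. It changed no count by over 1.5 times. The interaction count of 62 became 21 with DESeq2, 190 without a filter on low counts, 30 with no *Sprr1a* UMI, 15 with at least 4 core genes, 150 with at least 2 *Oprk1* UMIs, 33 with at most 5% mitochondrial UMIs, 0 after thinning, 98 with at most 10 *Apoe* UMIs per 10000, 21 with at least 10 *Tac1* UMIs and 8 with no replicate block of libraries. Leaving out 1 library gave 29 (without Male-Sham) to 94 (without Male-CCI), and 33 without Female-CCI. At 0 calls after thinning, edgeR had 356 of 7266 genes at an unadjusted p under 0.05.

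The difference in share of all cells (CCI minus sham, percentage points), -2.50 as reported, was -3.42 with no *Sprr1a* UMI, -2.17 with 4 core genes, -1.18 with 2 *Oprk1* UMIs, -3.22 at 5% mitochondrial UMIs, -0.634 after thinning and -1.85 with at least 2 other markers. As a ratio of sham to CCI the share of all cells was 2.62 as reported, 2.25 with 2 *Oprk1* UMIs, 2.37 after thinning and 8.15 with no *Sprr1a* UMI. The difference in share of PEP1-like cells, -5.08, was -2.98, -1.63, -1.28 and -3.57 with no *Sprr1a* UMI, 2 *Oprk1* UMIs, thinning and 2 other markers.

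Fold changes that changed sign for CCI were, with no *Sprr1a* UMI, *Serpinb1a* -0.69, *Sema5a* -0.94, *Trappc3l* -1.05, *Onecut2* -0.82, *Thy1* -1.03 and *Fgf12* -0.30; after thinning, *Thy1* -0.66 and *Fgf12* -0.28; in *Apoe*-low members, *Apoe* 0.0048, *Selenop* 0.042 and *Fabp7* 0.13; and with at least 10 *Tac1* UMIs, *Onecut2* -0.38 and *Fgf12* -0.30. Interaction values that changed sign were *Trappc3l* -0.72 and *Thy1* -0.50 with no *Sprr1a* UMI, *Trappc3l* -1.97, *Sv2b* -0.14, *Fgf12* -0.34 and *Thy1* -0.29 after thinning, *Sv2b* -0.30 and *Fgf12* -0.24 with 4 core genes, and *Vsnl1* -1.05, *Sv2b* -0.12 and *Fgf12* -0.24 with at least 10 *Tac1* UMIs. The values of *Apoe* and of glial genes in *Apoe*-low members depend on the limit that chose those members. Apart from these alternatives the causes were not tested. Few CCI members (45 and 72, of which 11 and 26 had no *Sprr1a* UMI) limit the depth behind every CCI value.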

Other observations

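Against the other *Sprr1a*-low neurons rather than *Comp* cells, a comparison set by the choice of cells and not tested, the members were several-fold higher in further genes, which *Comp* cells mostly shared. *Epha5*, an ephrin receptor, had 135, 132, 159 and 160 CPM in members and 17.5, 18.8, 24.4 and 24.9 in other neurons, but 102, 103, 146 and 151 in *Comp* cells. *Ptgir*, the prostacyclin receptor, had 101, 109, 117 and 136 CPM against 20.7, 24.4, 21.4 and 24.3, and 71.6, 78.8, 78.5 and 97.6 in *Comp* cells. *Ngfr*, the p75 neurotrophin receptor, had 336, 319, 388 and 353 CPM against 89.3, 87.8, 84.8 and 94.4, and 295, 308, 290 and 335 in *Comp* cells. *Igfbp2*, which binds insulin-like growth factors, had 125, 131, 101 and 115 CPM in members, 26.0, 29.6, 19.7 and 20.9 in other neurons and 35.1, 60.1, 36.6 and 35.5 in *Comp* cells, and was thus above both. *Calca*, the CGRP precursor, had 21421, 21521, 19278 and 20119 CPM in members and 14059, 14891, 14213 and 14562 in *Comp* cells. *Crip1*, a LIM domain protein, had 312, 276, 183 and 167 CPM in *Comp* cells and was lower than that in the members of every library but Female-CCI (203 CPM).

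The 6 CCI members with fewer than 10 *Tac1* UMIs were deep cells, with 50936 to 85383 UMIs and 1 to 3 *Oprk1* UMIs each. They held 35 to 148 *Thy1* UMIs and 20 to 138 *Fgf12* UMIs, and every one of them carried at least 1 *Sprr1a* UMI.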
